A study of Canis lupus familiaris with 34 samples.

Results

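The genes described here code for the chains of integrins and laminins. They were chosen by name, as the rows of the deposited expression table whose symbol begins with ITGA, with ITGB and a digit, or with LAMA, LAMB or LAMC and a digit, and 34 of 23988 rows met that rule. They comprise 16 integrin alpha chains, 5 integrin beta chains, 10 laminin chains and 3 proteins that are no chains but share the spelling (ITGB1BP1, ITGB1BP2 and ITGB3BP). The rule itself uses no measured value. Some other chains of these families, among them ITGB2, ITGB3 and ITGB4, are not analysed here, so several chains below stand without a main partner.

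An integrin is a receptor in the cell membrane made of an alpha and a beta chain, which binds matrix proteins outside the cell and is tied to actin inside it by talins, kindlins and related adaptors. The alpha chain largely sets the ligand. ITGA1, ITGA2, ITGA10 and ITGA11 bind collagens, ITGA3, ITGA6 and ITGA7 bind laminins, ITGA5, ITGA8 and ITGAV bind the arginine-glycine-aspartate motif of fibronectin and of bone matrix proteins, and ITGAE, ITGAL, ITGAM and ITGAX belong to leukocytes. A laminin is a trimer of an alpha, a beta and a gamma chain and is a main protein of basement membranes, the sheets under epithelium and endothelium and around muscle and fat cells.

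Osteosarcoma is a malignant tumour whose cells make bone matrix, and it is common in large dogs. RNA sequencing gave 34 libraries: 30 of primary bone tumours, 1 of a metastasis (DOS.6M), 2 of cultured osteosarcoma lines named OSCA.8 and OSCA.78, and 1 of an osteoblast culture (CNOB), with no treatment in any group. The labels give every dog as a Golden Retriever, whereas the series text also speaks of Rottweilers, and they give no age, tumour site or metastasis site. The lines came from earlier primary tumours, per the series text, and each culture is 1 library. Libraries DOS.46.2 and DOS.46 carry the same title number and were averaged into 1 tumour, so that 29 remain.

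Values were taken to be FPKM (fragments counted per kilobase of transcript and per size of library), so levels of different genes are compared per length. Depth in reads is unknown. Summed FPKM lay between 479053 and 837067 in the primary tumours, and the 34 genes took 0.124% to 0.340% of it. In CNOB the sum was 1418308, and in 5 tumours (DOS.32, DOS.75, DOS.81, DOS.110 and DOS.115) a single row exceeded 100000 FPKM. Calls that changed without those 5 tumours are named with the results. So are genes that CNOB held beyond all tumours as deposited but not under other scalings. DOS.100 and DOS.32 deviated from the mean of the primary libraries in the same way across genes (r = 0.844), more so than DOS.46 and DOS.46.2 (r = 0.729), and DOS.110 and DOS.115 followed (r = 0.671), with 0.468 for the next of the 435 pairs. The labels give these 4 libraries separate title numbers and they were kept as 4 tumours, so the 29 may count a source more than once. With each pair averaged, 27 tumours remained, and changed calls are given below. A filter of at least 1 FPKM in at least 2 libraries kept 32 of the 34 genes, leaving out ITGB6 and LAMB4. The labels do not say which libraries came from separate dogs, so p-values measure the spread between these libraries, which may in part be technical.

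In the tumours, the chains with the highest levels were ITGB5, with a median of 255 FPKM, and ITGB1, the beta partner of most matrix-binding alpha chains, with 206 FPKM. Laminin chains LAMB1 (122 FPKM), LAMA4 (104 FPKM) and LAMC1 (88.2 FPKM) came next, followed by the alpha chains ITGAV (87.1 FPKM), ITGA5 (86.1 FPKM) and ITGA11 (60.3 FPKM). With ITGB1BP1, a protein that binds the ITGB1 tail (55.0 FPKM), and LAMB2 (52.9 FPKM), they make up the 10 genes with a median of at least 50 FPKM. The ranges of neighbours in this order overlap, and the order does not hold in every tumour. Of the 34 genes, 21 reached 1 FPKM in every tumour and 1, LAMB4, reached it in none.

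**Figure D1:**
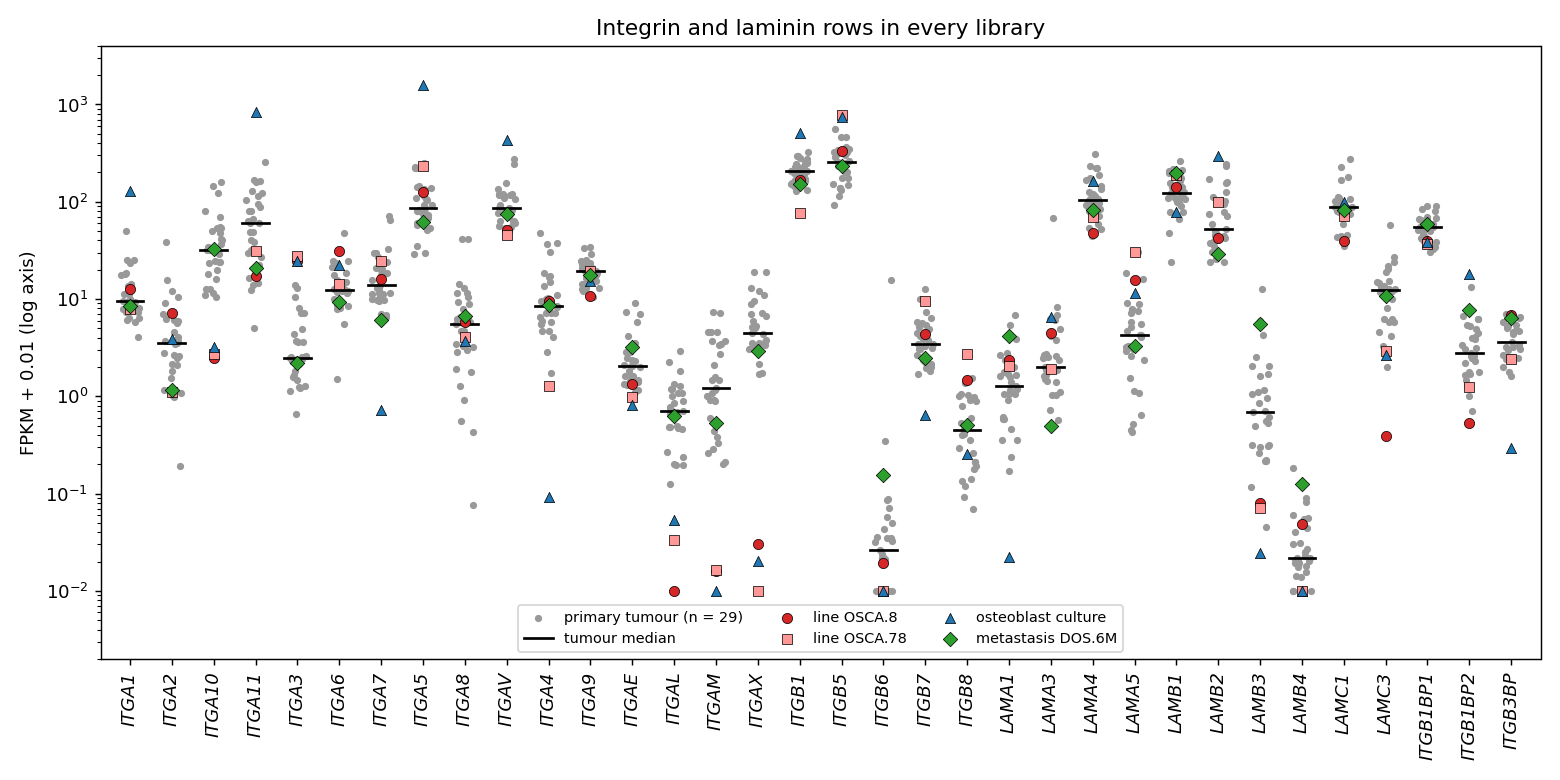
FPKM plus 0.01 on a log axis for the 34 integrin and laminin rows, with 1 grey point per primary tumour (n = 29), a bar at their median, and the lines, the osteoblast culture and the metastasis marked. The tumour medians run from 0.0116 FPKM for LAMB4 to 255 FPKM for ITGB5, and both lines lie below all tumours for ITGA10 and above all of them for ITGA3.

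Among the collagen-binding chains, ITGA11, an integrin of mesenchymal cells, ranged from 5.02 to 259 FPKM over the tumours around its median of 60.3. ITGA10, known from chondrocytes, ranged from 10.6 to 158 FPKM with a median of 32.1. ITGA1 lay between 4.04 and 49.6 FPKM (median 9.53) and ITGA2 between 0.181 and 38.2 FPKM (median 3.54). As a share of the summed FPKM of these 4 chains, ITGA11 took between 3.47% and 79.9% of a tumour and was the first of them in 21 tumours. ITGA10 was first in 5 tumours, among them both of the alike DOS.100 and DOS.32, ITGA1 in 2 and ITGA2 in 1. The tumours thus differ in which collagen receptor chain prevails: DOS.111, DOS.32 and DOS.100 hold the 3 lowest ITGA11 shares and the 3 highest ITGA10 levels (124, 146 and 158 FPKM), while DOS.75 holds the highest ITGA11 level.

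**Figure D2:**
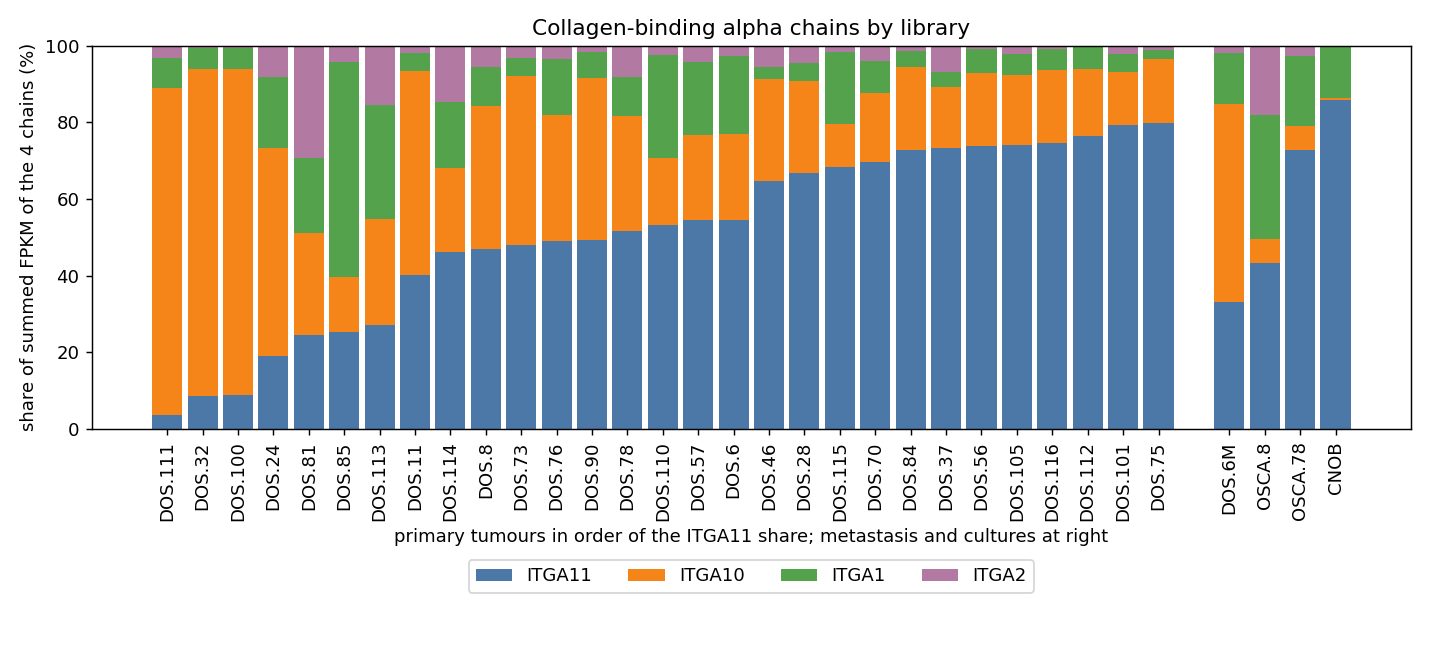
Share of the summed FPKM of ITGA1, ITGA2, ITGA10 and ITGA11 taken by each chain (percent), with 1 bar per primary tumour in order of the ITGA11 share, then the metastasis and the 3 cultures. ITGA11 leads in 21 of 29 tumours and reaches 79.9% in DOS.75, whereas ITGA10 takes 6.21% and 6.36% in the lines OSCA.8 and OSCA.78.

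Of the laminin-binding chains, ITGA7 had a tumour median of 13.9 FPKM and ITGA6 one of 12.5 FPKM, with ranges from 6.50 to 71.4 and from 1.48 to 47.4. ITGA3 was lower, from 0.655 to 13.9 FPKM with a median of 2.44. The receptors for fibronectin and related ligands were more abundant: ITGA5 lay between 29.2 and 248 FPKM and ITGAV between 54.4 and 274 FPKM. Among the 16 alpha chains found, ITGAV had the highest level in 10 tumours, ITGA5 in 8, ITGA11 in 7 and ITGA10 in 4. ITGA8, the receptor chain for nephronectin, spread over 0.0665 to 41.5 FPKM, with the alike tumours DOS.110 and DOS.115 at 41.5 and 41.1 FPKM. ITGA4 and ITGA9 form a separate pair of chains that bind fibronectin splice forms, VCAM1 and tenascin. ITGA9 kept within 10.4 to 34.5 FPKM, and ITGA4 spanned 1.74 to 47.3 FPKM.

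The leukocyte chains were low. ITGAX, known as CD11c, had a tumour median of 4.45 FPKM, ITGAE, which binds E-cadherin on epithelium, 2.05, ITGAM 1.20 and ITGAL 0.698. In bulk tissue, a low level can come from few cells or from little RNA per cell, which cannot be told apart. Of the beta chains, ITGB5 led in 20 tumours and ITGB1 in 9, ITGB7 had a median of 3.45 FPKM and ITGB8 one of 0.443 FPKM. ITGB6, an epithelial partner of ITGAV, was at or below 0.339 FPKM in 28 tumours and at 15.5 FPKM in DOS.70.

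LAMA4, the laminin alpha chain of vessel walls and mesenchyme, ranged from 44.5 to 312 FPKM and took 42.5% to 97.9% of the laminin alpha sum, first in 28 of 29 tumours. The exception was DOS.76, where LAMA3, the alpha chain of epithelial laminin, stood at 68.4 FPKM against 8.23 FPKM in the next tumour, DOS.70. LAMA5 ranged from 0.418 to 30.5 FPKM with a median of 4.23, and LAMA1, a chain of embryonic basement membranes, from 0.160 to 6.82 FPKM. LAMB1 prevailed over LAMB2 in 23 tumours and LAMB2 in 6, with LAMB2 between 23.8 and 247 FPKM. LAMC1 took 58.0% to 97.5% of the gamma sum, and LAMC3 reached 57.6 FPKM in DOS.76 and at most 27.2 FPKM in any other tumour. LAMB3, the beta partner of LAMA3, was highest in DOS.70 at 12.6 FPKM, the tumour with the highest ITGB6. Both belong to epithelia. The 4 epithelial markers found summed to 0.510 FPKM in DOS.70, against 0.504 to 12.3 in the tumours, with the adhesion molecule EPCAM at 0.0849 FPKM, and their part in these values was not tested.

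Variation between tumours was measured as the standard deviation (SD) of log2(FPKM + 1). The 10 genes with the largest SD were ITGA11 (1.30), ITGA8 (1.30), LAMA5 (1.13), LAMA3 and ITGA2 (1.07 each), ITGA10 (1.05), ITGA4 (0.998), LAMB2 (0.96), LAMC3 (0.89) and ITGAM (0.86). The median SD was 0.74 over the 32 genes tested and 0.54 over all 15165 rows past the filter. The first 6 fell among the 10% of all rows with the largest SD, which is 18.75% of the 32, and 3 did with 0.1 FPKM added before log2 instead of 1. Without the 5 tumours with a row above 100000 FPKM 5 did, with the SD of ITGA8 at 1.08 and that of LAMA5 at 0.94. The abundant beta chain ITGB1 and the sparse ITGB8 both had an SD of 0.36, the smallest of the 32. For ITGB8, with a median of 0.443 FPKM, the added 1 FPKM makes the SD small. Its FPKM spanned a 26.2-fold range over the tumours, against 2.54-fold for ITGB1. Highest values were not spread evenly over the tumours: DOS.115 held the highest value for ITGA5, ITGA7, ITGB5, LAMA4 and LAMC1, and DOS.81 for ITGA2, ITGA6, ITGA9, LAMA5 and LAMB1, 15.6% of the 32 in each, where 5.70% and 3.61% of all rows peaked. Both are among the 5 tumours with a row above 100000 FPKM.

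For the more abundant of these variable genes, the genes with the most similar profile over the 29 tumours were listed by Pearson r, as a description without a test. LAMA5 ran closest with the endothelial Notch receptor NOTCH4 (r = 0.89), CCDC88C (0.89) and the basement membrane collagen chain COL4A2 (0.88), and without the 5 tumours these values were 0.84, 0.86 and 0.80. ITGA2 ran closest with ARHGAP18 (0.88), the thrombin receptor F2R (0.86) and PRDM1 (0.84), and ITGA11 with BHLHE41 (0.81), the sarcoglycan-complex protein SSPN (0.79) and SH3RF3 (0.74). ITGA8 was followed by CHRDL1 and SGIP1 (0.80 each) and the matrix protein FBLN2 (0.78). Without the 5 tumours, which include DOS.110 and DOS.115, the highest for ITGA8, these values were 0.73, 0.65 and 0.62. For ITGA10 the closest genes were GGCX (0.78), KIAA1614 (0.78) and PLCG2 (0.76), and for ITGA4 SNX5 (0.74), CDK5RAP1 (0.72) and ITPA (0.69). Each is the highest of the correlations with every other gene of known symbol, and the genes share the same libraries.

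The lines were compared with the tumours to see which receptor and laminin chains differ between cultured osteosarcoma cells and tumour tissue. ITGA10, ITGAX, LAMC3 and ITGB1 were lower in the lines and ITGA3 and ITGB8 higher (limma on log2(FPKM + 1), adjusted p below 0.05, hereafter called). The other 26 of 32 were not called. Calls covered 18.75% of the 32, near the 16.4% of all 15165 rows. By direction, 2 of the 32 were higher and 4 lower, where 8.49% and 7.92% of all rows were. The median log2 fold change was -0.29 over the 32 and -0.05 over all rows. Fold changes on this scale understate those of genes near or below 1 FPKM.

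**Figure D3:**
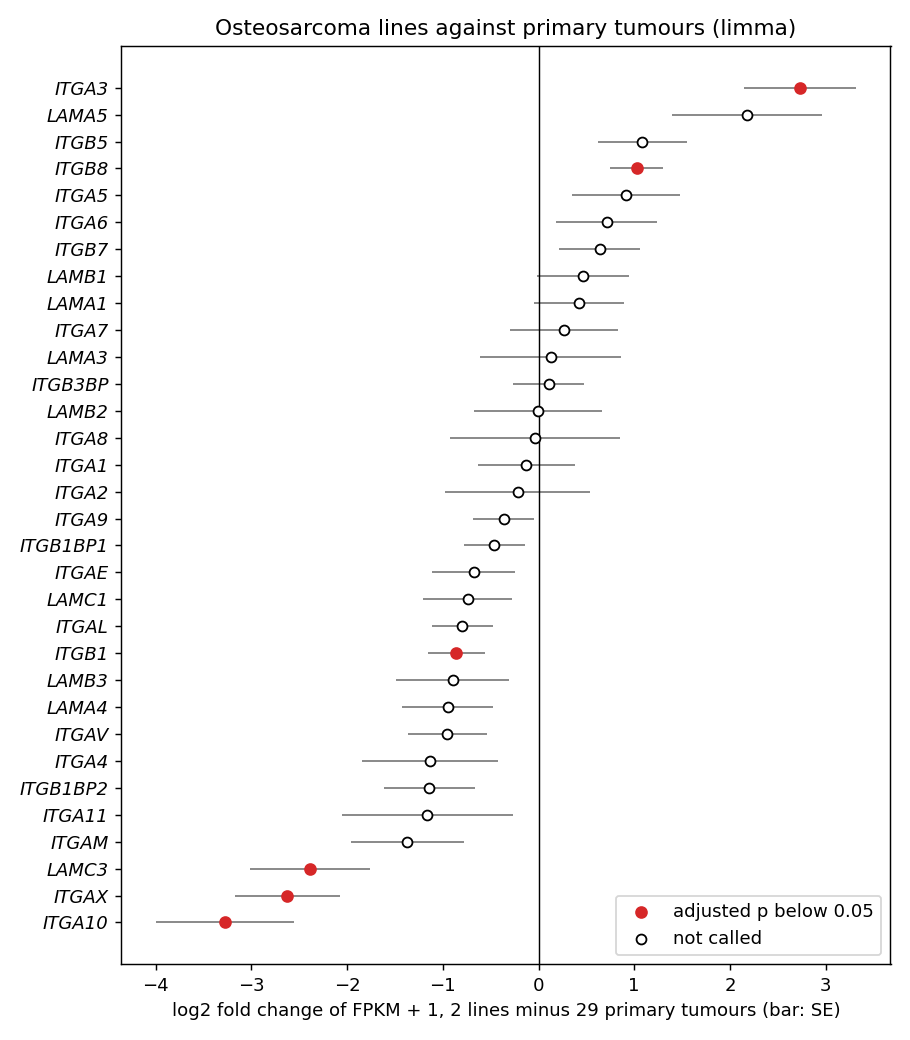
Log2 fold change of FPKM + 1 in the 2 lines against the 29 primary tumours for the 32 genes tested, with bars for the standard error (SE) from limma and filled points for adjusted p below 0.05. Values run from -3.27 for ITGA10 to 2.73 for ITGA3.

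ITGA10 stood at 2.44 FPKM (OSCA.8) and 2.74 (OSCA.78), under the lowest tumour at 10.6 FPKM. Its log2 fold change was -3.27 ± 0.72 (SE, limma adjusted p = 0.00202), and the exact permutation test over all ways to draw 2 of 31 samples gave p = 0.00215, the smallest it can give (0.0278 when adjusted over all rows). CNOB was as low, at 3.22 FPKM. ITGA11 did not share this: at 17.1 and 31.3 FPKM both lines lay inside the tumour range (log2 fold change -1.16, limma adjusted p = 0.399).

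ITGA3 was 24.5 FPKM for OSCA.8, 27.8 for OSCA.78 and 24.7 for CNOB as deposited, all above the highest tumour at 13.9 FPKM. Its log2 fold change was 2.73 ± 0.58 (SE, limma adjusted p = 0.00144, exact permutation p = 0.00215). Of the other laminin-binding chains, ITGA6 (31.3 and 14.4 FPKM in the lines) and ITGA7 (15.9 and 24.3 FPKM) lay inside the tumour range and were not called. LAMA5, a ligand chain of ITGA3 and ITGA6, stood at 15.6 and 30.5 FPKM in the lines against the tumour median of 4.23, and just missed the threshold (2.18 ± 0.78, limma adjusted p = 0.0518). It was called without the 5 tumours named above (2.43, limma adjusted p = 0.0107) and with the 2 alike pairs averaged (2.23, limma adjusted p = 0.0430). LAMA5 took 22.3% and 29.5% of the laminin alpha sum in the lines and at most 11.8% in any tumour. The 4 epithelial markers found came, summed, to 11.8 FPKM (OSCA.8) and 65.8 (OSCA.78) against 0.504 to 12.3 in the tumours, EPCAM at 7.55 and 48.4 FPKM. EPCAM alone exceeded every tumour in OSCA.8, and EPCAM, KRT5 and ESRP1 did in OSCA.78, whereas the tight junction protein CLDN4 was at 0.211 FPKM, below all tumours, and at 0.335 FPKM, near the lowest tumour at 0.307. The part of such cells in the ITGA3 and LAMA5 values was not tested. Endothelial markers were all below 1 FPKM in both lines, summing to 0.467 and 0.532 FPKM against 91.6 to 2465 in the tumours.

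ITGAX was at 0.0202 FPKM (OSCA.8) and listed at 0 (OSCA.78), under the lowest tumour at 1.69 FPKM (-2.62 ± 0.55, SE, limma adjusted p = 0.00115, exact permutation p = 0.00215). ITGAM (0.00613 and 0.00656 FPKM) and ITGAL (listed at 0 and 0.0235 FPKM) also lay below all tumours in both lines. They were not called with 1 FPKM added (limma adjusted p = 0.1099 and 0.0846) and were called with 0.1 FPKM added (0.00687 and 0.00453). The fourth leukocyte chain, ITGAE, stood at 1.32 and 0.970 FPKM against a lowest tumour of 1.10 and was not called (limma adjusted p = 0.298). Of 11 macrophage markers 10 were below 1 FPKM in both lines, with sums of 1.70 and 2.61 FPKM against 86.4 to 1532 in the tumours. The T cell list summed to 1.06 and 0.884 FPKM in the lines against 2.27 to 55.2. Of its 8 genes found, CD3G, CD2, CD5 and ZAP70 were below all tumours in both lines and 4 were inside the range. Inside were CD3D, CD27 and TRAT1, listed at 0 as in the lowest tumour, and LCK. LCK made up most of the sums, at 1.03 and 0.754 FPKM against 0.294 to 11.3 in the tumours. The part of such cells in the lower ITGAX was not tested.

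LAMC3 was 0.376 FPKM for OSCA.8 and 2.89 for OSCA.78, where the tumours ranged from 1.99 to 57.6 FPKM around a median of 12.2. Its log2 fold change of -2.38 ± 0.63 (SE, limma adjusted p = 0.00851, exact permutation p = 0.00430) rested on OSCA.8: without it the change was -1.64 with a limma adjusted p = 0.213. The lowest tumour for LAMC3 was DOS.8.

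ITGB1 stood at 168 FPKM in OSCA.8, inside the tumour range of 129 to 327 FPKM, and at 76.4 in OSCA.78, below it. Its change of -0.86 ± 0.30 (SE, limma adjusted p = 0.0448) did not pass the exact permutation test once adjusted over all rows (exact permutation p = 0.0172, adjusted 0.0872). It was -0.30 without OSCA.78 (limma adjusted p = 0.823), and the call was also lost without the 5 tumours (limma adjusted p = 0.0544). ITGB8, which pairs with ITGAV, stood at 1.45 and 2.74 FPKM in the lines against 0.0589 to 1.54 in the tumours (1.03 ± 0.28, SE, limma adjusted p = 0.00963, exact permutation p = 0.00430), and at 0.72 it was not called without OSCA.78 (limma adjusted p = 0.427). ITGB5, at 334 and 777 FPKM against 93.4 to 558, was not called (limma adjusted p = 0.107). ITGAV itself lay below all tumours in both lines, at 50.7 and 45.5 FPKM, and was not called (limma adjusted p = 0.1095).

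Without OSCA.78, LAMC3 alone of the 6 kept its call. ITGA10, ITGAX and ITGA3 then had nearly the same changes (-3.33, -2.61 and 2.64) at limma adjusted p = 0.0815, 0.0685 and 0.0867, while 344 of all rows were called in place of 2489. Without OSCA.8, 5 of the 6 were called. Both lines lay beyond all 29 tumours in the same direction for 1 gene above (ITGA3, 3.12% of the 32, where 4.04% of all rows did) and 5 below (ITGA10, ITGAV, ITGAL, ITGAM and ITGAX, 15.6%, where 7.30% did).

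A tumour and a line share a title number on 2 occasions, though the labels do not say that they share a dog. ITGA10 was 23.8 FPKM in DOS.8 and 2.44 in OSCA.8, and 23.5 FPKM in DOS.78 and 2.74 in OSCA.78. ITGA3 was 2.44 FPKM in DOS.8 against 24.5 in its line and 2.40 FPKM in DOS.78 against 27.8. LAMA5 stood at 1.13 FPKM in DOS.8 and 5.57 in DOS.78, below its lines at 15.6 and 30.5. ITGA4, not called against all tumours and named after its values were seen, was 37.2 FPKM in DOS.8 against 9.43 in OSCA.8 and 18.5 FPKM in DOS.78 against 1.27 in OSCA.78. Of the 32 genes 26 differed in the same direction in both sets, 81.25%, where 69.2% of all rows did. For ITGA3, ITGA10, ITGAV, ITGAL, ITGAM and ITGAX that direction was fixed, since both lines lay beyond every tumour. It was also fixed for the 4.04% of all rows with both lines above every tumour and the 7.30% with both below. A limma fit on these 4 libraries with the title number as a block called none of the 32 and none of all 15165 rows. At an unadjusted limma p below 0.05 were 9 of the 32 and 3205 of all rows. With so few libraries the smallest limma adjusted p of all rows was 0.0813. The 6 genes called against all tumours thus lost their call as every other row did, which says nothing particular to them. The limma adjusted p with the block was 0.111 for ITGA10 and for ITGA3, 0.113 for ITGAX, 0.193 for LAMC3, 0.247 for ITGB8 and 0.302 for ITGB1. It was 0.116 for LAMA5 and 0.140 for ITGA4.

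Other genes of cell adhesion were taken from fixed lists. Of 22 adaptors at integrin tails, 4 were called, 1 higher and 3 lower in the lines, a share of 18.2% near the 16.4% of all rows. The kindlins, which activate integrins, split: leukocyte kindlin FERMT3 fell from a median of 10.6 FPKM to 0.0518 and 0.0277 (-3.33, limma adjusted p = 2.4e-04), the widespread FERMT2 fell from 144 FPKM to 58.7 and 18.999 (-1.97, limma adjusted p = 6.5e-05), and epithelial FERMT1 rose from 2.05 FPKM to 6.16 and 4.92 (1.18, limma adjusted p = 0.0256). The leukocyte parvin PARVG, at a median of 4.01 FPKM in tumours, was listed at 0 in both lines and fell by 2.15 (limma adjusted p = 0.00300). FERMT3 alone kept its call without OSCA.78, and FERMT1 lost it when either line was left out. Of 17 basement membrane proteins and laminin-binding partners 1 was called (5.88%, where 16.4% of all rows were), the heparan sulphate proteoglycan SDC2, which fell from 63.7 FPKM to 28.7 and 29.7 (-1.27, limma adjusted p = 0.0436) and was not called when either line was left out. The median log2 fold change was 0.11 for the adaptors, -0.33 for the basement membrane list and -0.21 for the ligands, beside -0.05 for all rows. The basement membrane list as fixed also holds LUM (log2 fold change -1.21), which serves as a fibroblast marker below. The median of that list without LUM was not computed, so its sign may rest on that gene.

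Of 17 integrin ligands 5 were called, 29.4% beside the 16.4% of all rows, 1 higher and 4 lower. The ligand THBS1 was not among them (log2 fold change 1.82, limma adjusted p = 0.172). It was called without the 5 tumours with a row above 100000 FPKM (2.19, limma adjusted p = 0.0435). The bone matrix ligands IBSP and SPP1, both bound by ITGAV integrins, fell from medians of 917 and 519 FPKM to 1.96 and 0.717 FPKM and to 18.998 and 5.01 FPKM (-8.32 and -5.57, limma adjusted p = 7.1e-05 and 0.00220). POSTN, a matrix protein of fibroblasts and osteoblasts, fell from 321 FPKM to 19.7 and 1.34 (-5.50, limma adjusted p = 0.0166), and the endothelial ICAM2, bound by ITGAL, from 24.7 FPKM to 0.0931 and 0.151 (-4.24, limma adjusted p = 6.0e-05). NPNT, the ligand of ITGA8 and the fifth call, named after its values were seen, rose from 7.09 FPKM to 60.0 and 42.0 (2.73, limma adjusted p = 0.0379) and lost its call when either line was left out. SPP1 and POSTN were not called without OSCA.78 (limma adjusted p = 0.179 and 0.476).

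The osteoblast culture is 1 library, so its values are set against the tumour range without a test. ITGA5, the fibronectin receptor chain, stood at 1599 FPKM against a highest tumour of 248, ITGA11 at 839 against 259, ITGA1 at 130 against 49.6 and ITGA3 at 24.7 against 13.9. ITGAV (434 FPKM), ITGB1 (514), ITGB5 (743), LAMB2 (293) and ITGB1BP2, a muscle protein that binds ITGB1 (18.3), also exceeded every tumour, which makes 9 of the 32 genes, where 3337 of all 15165 rows did. Beyond the tumour range in either direction were 20 of the 32, 62.5%, and 41.5% of all rows. ITGA1, ITGA11 and ITGA5 stayed above all tumours under each of 3 other scalings, whereas 7 genes did after upper quartile scaling, 5 after quantile normalisation and 3 after scaling to the summed FPKM. ITGA3 was inside the tumour range after scaling to the sum (10.8 against a highest tumour of 15.2 FPKM), as was ITGB1BP2, whereas ITGAV and ITGB1 were above it only after upper quartile scaling and ITGB5 and LAMB2 under none of the 3. The median log2 difference of CNOB from the tumours over all rows was -0.14 as deposited, -0.40 after upper quartile scaling, -0.72 after scaling to the sum and -0.02 after quantile normalisation.

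Below every tumour in CNOB were 11 of the 32 genes, where 2951 of all rows were. They were the 4 leukocyte chains, ITGA4 (0.0815 FPKM), ITGB7 (0.628), ITGA10 (3.22), ITGA7 (0.709), LAMA1 (0.0125), LAMB3 (0.0144) and the kinetochore protein ITGB3BP (0.283). ITGA10, ITGA7, ITGA4, ITGAM, ITGAX, ITGB7 and ITGB3BP were below under all 3 other scalings, and ITGAE, ITGAL, LAMA1 and LAMB3 were inside after quantile normalisation. Bone matrix markers only partly matched the osteoblast label: the 6 found summed to 48.7 FPKM, below every tumour (116 to 8548). IBSP at 6.95 and SPP1 at 4.38 FPKM were below all tumours, and the other 4 were inside the range. The transcription factor SP7 was 24.7 FPKM, within the tumours' 7.72 to 128. Nearer the lowest tumour were OMD (12.2 FPKM, lowest tumour 7.82), PHEX (0.0753, lowest 0.0605) and DMP1 (0.429, lowest 0.306). The smooth muscle and pericyte list summed to 47736 FPKM against 78.4 to 1810 in tumours, nearly all of it TAGLN at 47085 FPKM. Of its 6 genes found, TAGLN, KCNMB1 and NOTCH3 were above all tumours, MCAM was inside, and the pericyte gene RGS5 (0.0663 FPKM) and the smooth muscle myosin MYH11 (0.424 FPKM) were below all of them. Of 5 skeletal muscle genes ACTA1 was above all tumours, at 708 FPKM against at most 81.9, and the other 4 were inside. How these relate to the high ITGA1, ITGA5 and ITGA11 was not tested.

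The metastasis, also 1 library, exceeded all primary tumours for none of the 32 genes and lay below them for ITGA7 (6.02 FPKM) and LAMA3 (0.486 FPKM), 6.25% beyond the tumour range where 8.54% of all rows were. Set beside DOS.6, the primary tumour of the same title number, it was at least 2-fold higher on FPKM + 1 for LAMB3 (5.52 against 1.62 FPKM), 3.12% where 3.90% of all rows were, and at least 2-fold lower for ITGA1 (8.38 against 18.2), ITGA5 (61.3 against 138) and ITGA11 (20.6 against 48.8), 9.38% where 5.16% were. ITGA10 stood at 32.4 FPKM in the metastasis and 19.9 in DOS.6, and it led the collagen-binding chains in the metastasis with 51.8%. Its T cell markers summed to 40.2 FPKM, above 28 of the 29 tumours, and the epithelial list to 12.5 FPKM, above all 29, with EPCAM and KRT5 above every tumour and ESRP1 and CLDN4 inside the range. The fibroblast list summed to 2045 FPKM, below all tumours, through COL1A2 (1930 FPKM against a lowest tumour of 2870), while FAP, POSTN, LUM and PDGFRA were inside the range.

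Integrin chains reach the cell surface as pairs and laminins are secreted as trimers, so known partner chains were correlated over the 29 tumours on log2(FPKM + 1). Both partners passed the filter in 24 of 36 fixed pairs, and 4 pairs correlated at an adjusted permutation p below 0.05, all positively. The median r of the 24 was 0.25, and 22 were positive.

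The laminin pairs led. LAMA4 with LAMC1 gave r = 0.754 (permutation p = 1.0e-05, the smallest that 100000 permutations can give, adjusted p = 2.4e-04) and Spearman's rho = 0.760 (permutation p = 2.0e-05, adjusted p = 4.8e-04). LAMA5 with LAMC1 gave r = 0.650 (permutation p = 8.0e-05, adjusted p = 6.4e-04) and rho = 0.537 (permutation p = 0.00305, adjusted p = 0.0366). LAMA4 with LAMB1 gave r = 0.489 (permutation p = 0.00673, adjusted p = 0.0404) but was not called by rho = 0.473 (permutation p = 0.0103, adjusted p = 0.0619), nor with the 2 alike pairs of tumours averaged (r = 0.456, adjusted permutation p = 0.0950). By r with LAMA4, LAMC1 had rank 3 among all genes and LAMB1 rank 580. LAMC1 had rank 271 by r with LAMA5, and LAMA4 had rank 25 by r with LAMC1. LAMB2 with LAMC1, at r = 0.364 and rho = 0.293 (permutation p = 0.0518 and 0.122, adjusted p = 0.222 and 0.326), was not called. The laminin calls rest in part on tumours with a row above 100000 FPKM: DOS.115, DOS.81 and DOS.110 hold LAMA4 at 312, 224 and 223 FPKM and LAMC1 at 278, 226 and 180 FPKM. Without the 5 such tumours r was 0.547 for LAMA4 with LAMC1, 0.431 for LAMA5 with LAMC1 and 0.382 for LAMA4 with LAMB1 (adjusted permutation p = 0.0782, 0.203 and 0.279). With the 2 tumours left out whose first chain lay farthest from its median, r was 0.726, 0.558 and 0.473, with LAMA4 and LAMB1 no longer called (adjusted permutation p = 0.0715).

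ITGAE with ITGB7, which form the receptor of T cells within epithelium, gave r = 0.706 (permutation p = 5.0e-05, adjusted p = 6.0e-04) but was not called by rho = 0.493 (permutation p = 0.00752, adjusted p = 0.0602). The highest tumours on both were DOS.57 (9.10 and 12.5 FPKM) and DOS.112 (7.34 and 9.93 FPKM), and without the 2 farthest tumours r was 0.493 (adjusted permutation p = 0.0693). Without the 5 tumours with a dominant row it was 0.762 and called.

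None of the 12 alpha chains tested with ITGB1 was called. ITGA9 with ITGB1 had the highest r of them, 0.353 (rho = 0.311, permutation p = 0.0606 and 0.1001, adjusted p = 0.222 and 0.300), and it was called after quantile normalisation alone (r = 0.538, adjusted permutation p = 0.0133). The lowest of the 24 pairs were ITGA10 with ITGB1 (r = -0.238, rho = -0.233, permutation p = 0.215 and 0.226, adjusted p = 0.329 and 0.378), ITGA11 with ITGB1 (r = -0.0195, rho = -0.00345, permutation p = 0.920 and 0.986, adjusted p = 0.937 and 0.986) and ITGAV with ITGB8 (r = 0.0154, rho = 0.0793, permutation p = 0.937 and 0.680, adjusted p = 0.937 and 0.739). ITGAV with its abundant partner ITGB5 reached r = 0.214 (adjusted permutation p = 0.379).

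**Figure D4:**
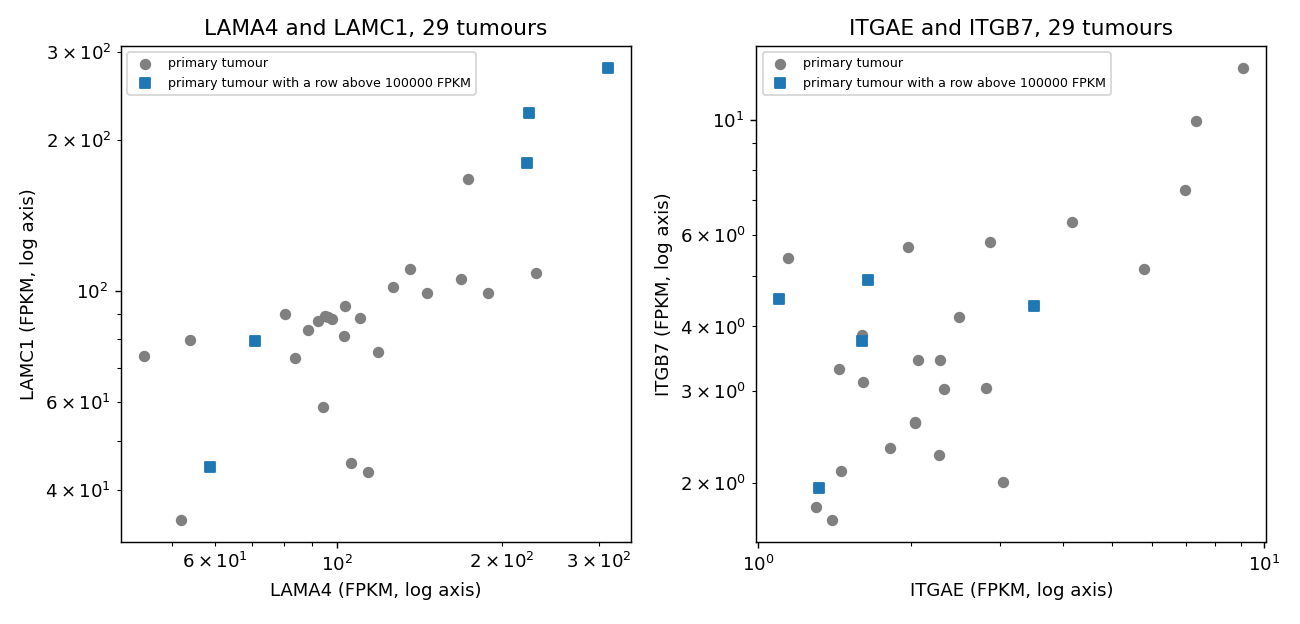
FPKM of LAMC1 against LAMA4 (left) and of ITGB7 against ITGAE (right), log axes, with 1 point per primary tumour (n = 29) and squares for the 5 tumours with a row above 100000 FPKM. Of the squares, 3 hold the highest LAMC1 values at the right of the first panel, and DOS.57 stands at 9.10 and 12.5 FPKM at the top right of the second.

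Single chains were also set against scores of cell type markers. Each score is the mean z-score of those genes of a fixed list that passed the filter, none of them an integrin or laminin gene. Some scores rest on few genes: 4 of the 8 listed for osteoclasts and 3 of the 9 listed for epithelium. Of 22 fixed pairs tested, 12 correlated at an adjusted permutation p below 0.05, all positively, around a median r of 0.50 over the 22. Among all genes, 0.574% had at least the r of ITGAE with the T cell score, the smallest share of the 12. The largest was 5.98%, for ITGA7 with the smooth muscle and pericyte score. For ITGAV with the osteoclast score it was 4.05%, and for LAMA4 with the endothelial score 3.48%. With the endothelial score, ITGA6 gave r = 0.776 (rho = 0.756, permutation p = 1.0e-05 for both, adjusted p = 7.3e-05 and 1.1e-04), LAMA5 0.736 (rho = 0.684, permutation p = 1.0e-05 and 7.0e-05, adjusted p = 7.3e-05 and 3.8e-04), LAMC1 0.697 (rho = 0.541, permutation p = 4.0e-05 and 0.00294, adjusted p = 2.2e-04 and 0.00808) and LAMA4 0.586 (rho = 0.490, adjusted p = 0.00209 and 0.0198), whereas LAMB1 was not called (r = 0.361, adjusted permutation p = 0.0940). Without the 5 tumours r was 0.654 for ITGA6, 0.588 for LAMA5 and 0.518 for LAMC1, all still called, and 0.369 for LAMA4, which was not (adjusted permutation p = 0.136).

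With the smooth muscle and pericyte score, ITGA1 gave r = 0.743 (rho = 0.779, permutation p = 1.0e-05 for both, adjusted p = 7.3e-05 and 1.1e-04), ITGA8 0.651 (rho = 0.569, adjusted permutation p = 5.1e-04 and 0.00576) and ITGA7 0.542 (rho = 0.449, adjusted permutation p = 0.00488 and 0.0316). ITGA7 rested on few tumours: r was 0.231 without the 2 farthest and 0.119 without the 5 with a dominant row (adjusted permutation p = 0.361 and 0.708), and 0.410 with the 2 alike pairs averaged (adjusted permutation p = 0.0620). ITGA11 with the fibroblast score was not called (r = 0.240, adjusted permutation p = 0.270).

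Of the leukocyte chains, ITGAM ran with the macrophage score at r = 0.690 (rho = 0.713, permutation p = 6.0e-05 and 3.0e-05, adjusted p = 2.6e-04 and 2.2e-04), but ITGAX, which neighbours it in the genome, did not pass (r = 0.111, adjusted permutation p = 0.659). ITGAE gave r = 0.687 with the T cell score (rho = 0.434, permutation p = 1.9e-04 and 0.0195, adjusted p = 6.0e-04 and 0.0357), ITGB7 0.583 (rho = 0.445, adjusted permutation p = 0.00271 and 0.0329) and ITGAL 0.543 (rho = 0.628, adjusted permutation p = 0.00488 and 0.00158), while ITGA4 was not called (r = 0.0862, adjusted permutation p = 0.689). ITGB7 lost its call without the 2 farthest tumours (adjusted permutation p = 0.0544). ITGAV gave r = 0.462 with the osteoclast score (rho = 0.554, adjusted permutation p = 0.0186 and 0.00607), and in osteoclasts it is known to pair with ITGB3. Without the 5 tumours, ITGAV was not called (r = 0.446, adjusted permutation p = 0.0611), and 9 of the 12 kept their call.

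The lowest of the 22 were ITGA5 with the bone matrix score (r = -0.292, rho = -0.186, permutation p = 0.122 and 0.332, adjusted p = 0.167 and 0.405), ITGA10 with the cartilage score (r = -0.117, rho = -0.0966, permutation p = 0.544 and 0.617, adjusted p = 0.659 and 0.646) and LAMA3 with the epithelial score (r = -0.107, rho = -0.144, permutation p = 0.604 and 0.458, adjusted p = 0.665 and 0.530). None of these 3 was called, so no relation of ITGA10, a chain known from chondrocytes, to cartilage markers was detected in these tumours.

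**Figure D5:**
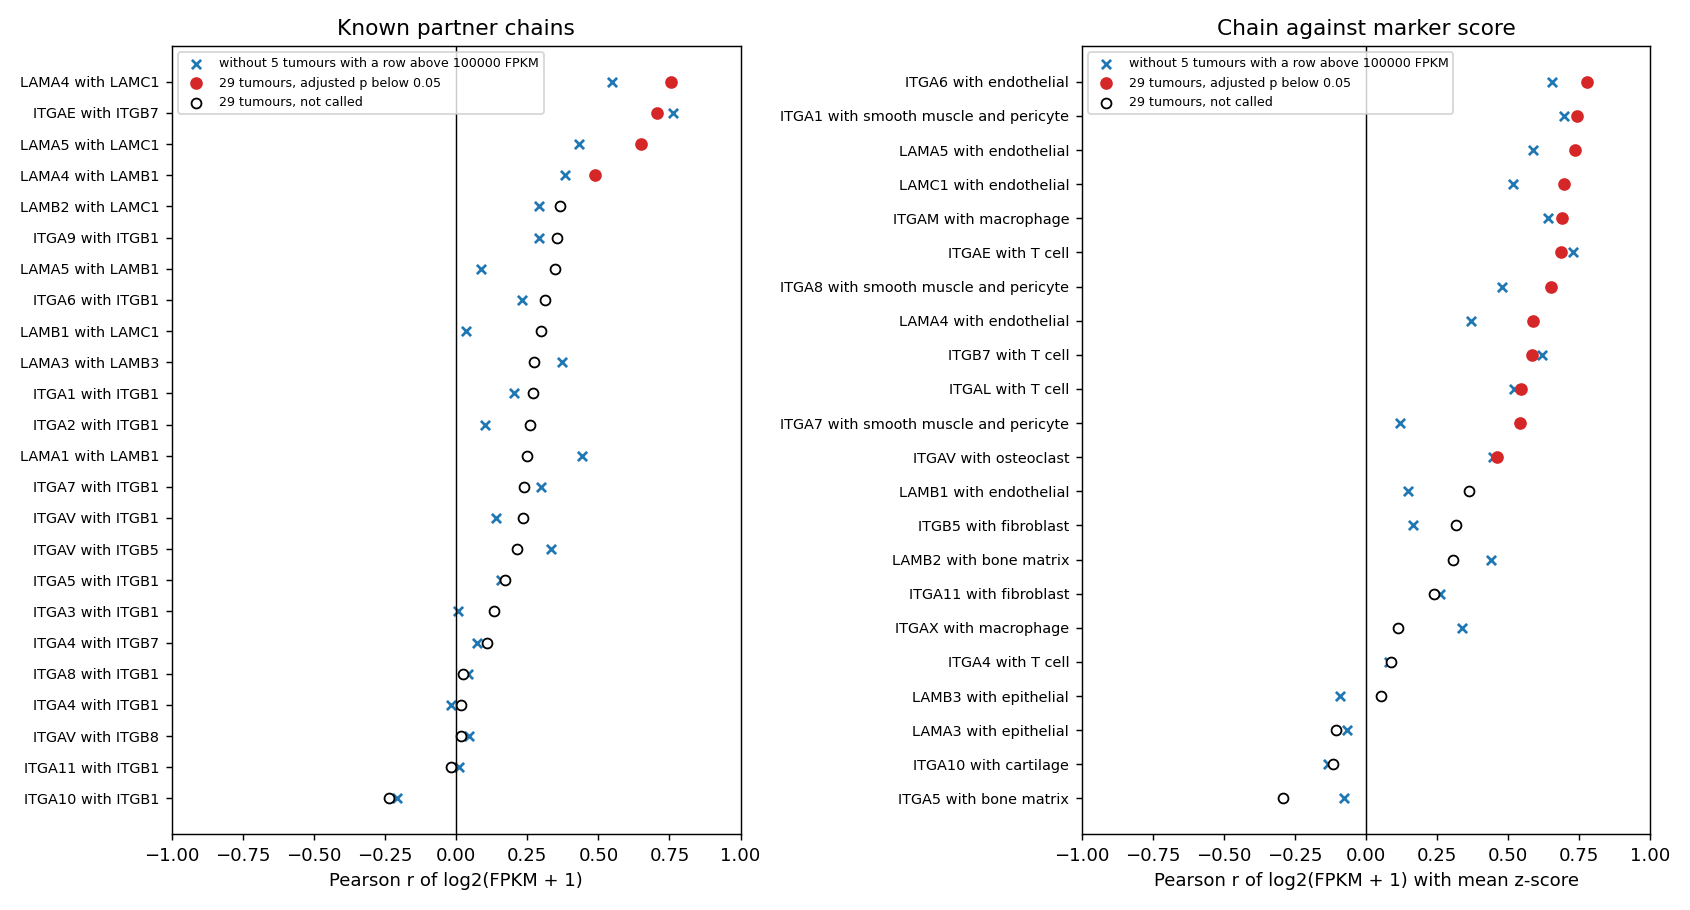
Pearson r over 29 primary tumours for the 24 partner pairs (left) and the 22 pairs of a chain and a marker score (right), filled where the adjusted permutation p is below 0.05, with crosses for r without the 5 tumours with a row above 100000 FPKM. Values run from -0.238 for ITGA10 with ITGB1 to 0.754 for LAMA4 with LAMC1, and from -0.292 to 0.776 on the right.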

How the data were processed

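Expression was measured by RNA sequencing of total RNA in 34 dog libraries. The authors deposited 1 table of 23988 rows with no unit in its header. The values were taken to be FPKM as deposited by the authors, because Cufflinks 2.2.1, which reports that unit, is named in the submitters' processing notes together with FastQC 0.11.2, TopHat2 2.0.13 and canFam3. Neither annotation nor order of steps are given in the sources used here. A filter of 1 FPKM or more in 2 or more libraries kept 15165 rows, and 1 FPKM was added before log2. DOS.46 and DOS.46.2 (r = 0.729 between their deviations across genes) were averaged on that scale, since they share a title number.

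The lines were compared with 29 tumours in limma 3.58.1 under R 4.3.3 (trend and robust options, two-sided, Benjamini-Hochberg over all 15165 rows, threshold 0.05), beside an exact two-sided permutation test. Correlations used 100000 two-sided permutations, adjusted within each family of pairs (Python 3.11.15, numpy 2.4.6, scipy 1.17.1, pandas 2.3.3, matplotlib 3.10.9). The fits were tested on simulated data. Other pseudocounts, filters, scalings, sample choices and tests were tried as alternatives. The members, lists, pairs and tests were chosen with earlier results of these data known. Named were all members, called members with full statistics, the 10 with the largest SD, the 3 genes most similar to the 6 most variable members with a mean of at least 5 FPKM, up to 4 called genes of each other list, and, of the pairs, the 6 highest, the 3 lowest and any that changed its call. Which genes neighbour each other came from a RefSeq annotation of another build, so no coordinates are printed.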

Additional observations from a re-analysis of the deposited data

Results flagged for a closer look

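A few genes lay beyond all 29 primary tumours in opposite directions in different cultures, and these differences between cultures were not tested, as each culture is 1 library. ITGAV differed from the tumours' mean log2(FPKM + 1) by -0.88 in OSCA.8 and by -1.03 in OSCA.78, below every tumour, and by 2.197 in the osteoblast culture, above every tumour. ITGB1 differed by -1.42 in OSCA.78 and by 1.31 in the osteoblast culture. ITGB1BP2 differed by -1.42 in OSCA.8 and by 2.25 in the osteoblast culture. The high side depends on the scaling of the osteoblast culture: after scaling to the summed FPKM it lay inside the tumour range for all 3 genes (190 FPKM for ITGAV, 226 for ITGB1 and 8.02 for ITGB1BP2), and after quantile normalisation for ITGAV and ITGB1. The low side of ITGAV also ended after scaling to the summed FPKM, at 57.9 FPKM (OSCA.8) and 49.4 (OSCA.78) against a lowest tumour of 42.4, whereas ITGB1 in OSCA.78 and ITGB1BP2 in OSCA.8 were below all tumours under each of the 3 other scalings.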

How the results depend on the processing

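The counts of called genes depended on which cultures entered. Leaving out 1 line at a time gave between 1 and 5 of the 32 integrin and laminin genes in place of 6, between 4 and 7 of 56 other adhesion genes in place of 10, and between 344 and 1998 of all rows in place of 2489; the lone line was assumed to vary like the tumours. With the osteoblast culture added to the lines the counts were 10, 22 and 4580. A replicate block by the title number shared by a tumour and a line (DOS.8 with OSCA.8, DOS.78 with OSCA.78) called 0 in each set by limma, with 9, 18 and 3205 at an unadjusted p below 0.05. The labels do not state this pairing, and the difference between the 2 lines correlated at r = 0.269 across genes with that between the 2 tumours. The 4 called partner pairs became 1 without the 5 tumours with a row above 100000 FPKM (an alternative chosen after seeing the data, as were the averaging of the 2 alike pairs of tumours and the rescaling of the cultures), 2 by Spearman correlation and 2 without the 2 tumours farthest from the median. The 6 genes among the most variable became 3 with 0.1 FPKM added. The cause of these shifts was not tested. At most 25 single genes and 29 pairs per alternative entered a count of changes, not all 32 members. In it, 522 kept direction and call, 58 lost the call, 9 gained it and 12 reversed, all 12 of results that were not called. Members outside this count also reversed. Without OSCA.78, the log2 fold change of ITGA1 went from -0.13 to 0.19 and that of ITGA2 from -0.22 to 0.75. That of LAMB2 went from -0.0068 to 0.60 without OSCA.8. None of these 3 was called against all tumours. With the osteoblast culture added, the log2 fold change became 0.54 for ITGA11, 0.098 for ITGAV and -0.93 for ITGA7. That of ITGA7 was also -0.30 with the block and between -0.027 and 0.56 when 1 line at a time was left out. By the exact permutation test adjusted over all rows, ITGB1 (p = 0.0872), SDC2 and POSTN (p = 0.0502 each) were not called. For the correlations, r became 0.0784 for ITGA10 with ITGB1 after quantile normalisation, -0.0011 for ITGAV with ITGB8 after upper quartile scaling and 0.0107 for ITGA11 with ITGB1 without the 5 tumours. Without the 2 farthest tumours it became -0.0132 for ITGAV with ITGB5, -0.103 for ITGAX with the macrophage score, -0.0820 for ITGA4 with the T cell score and -0.0340 for ITGA11 with the fibroblast score. Depth is unknown, so the precision of values below 1 FPKM cannot be given.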

Other observations

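Some values stand outside the comparisons above. The other 2 rows that share the spelling without being chains had an SD of log2(FPKM + 1) of 0.43 and 0.48: ITGB1BP1 ranged from 30.3 to 91.4 FPKM and stood at 39.9, 36.5 and 38.2 FPKM in OSCA.8, OSCA.78 and CNOB, and ITGB3BP from 1.62 to 6.94 FPKM, with 6.77, 2.44 and 0.283 FPKM in the same cultures. ITGB1BP2, known from muscle, ranged from 0.702 to 13.4 FPKM and was highest in DOS.101. The same tumour held the lowest value of 6 of the 32 genes tested (ITGA1, ITGA3, ITGA8, LAMA3, LAMB3 and LAMC1). How many of all rows were lowest in it was not counted. It held the highest value of 3 (ITGA4, ITGB1BP2 and ITGB3BP), 9.38% of the 32, where 5.72% of all rows peaked.

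The genes most similar to ITGA3 over the tumours, listed after its values were seen, did not share its level in the lines. KIAA1462 (r = 0.90 over 29 tumours) stood at 3.15 and 2.44 FPKM in OSCA.8 and OSCA.78 against a tumour median of 6.34, ZNF366 (r = 0.88) at 0.114 and 0.0211 FPKM against 1.5, and SH3TC2 (r = 0.88) was listed at 0 in both against 1.39, while ITGA3 itself was above all tumours in both lines.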
